A study of Brassica rapa subsp. pekinensis with 10 samples.

Results

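Chinese cabbage (Brassica rapa subsp. pekinensis), a leafy Brassica crop, was sampled through a short course of cold stress, and the step described here is the second hour, from 60 to 120 min. The groups are the arrays labelled cold stress 120 min and those labelled cold stress 60 min, each with 1 array of the variety Shin-Hong and 1 of the variety Man-Su. These are 4 of the 10 arrays of the series. The other 6 are 1 array per variety at 15 min of cold, at 30 min of cold and under the condition labelled normal. Total RNA was hybridised to one-colour Cy3 NimbleGen arrays of 47548 cabbage features. The labels leave tissue, temperature and plant age unstated. They also do not name the plants or pools behind each array, so p-values measure only the spread between these arrays, which may be technical. A feature was taken as shared when its intensity was at least 2-fold apart between 120 and 60 min, in the same direction, in both varieties. By this measure 84 features were higher and 92 lower at 120 min, 176 in all.

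Plants answer a drop in temperature with a relay of gene expression. In Arabidopsis, a relative of cabbage, the transcription factor ICE1 acts within minutes on the genes for CBF transcription factors. Their transcripts accumulate fast and decline again, and the CBF proteins then switch on COR genes, which encode protective proteins and enzymes of cold acclimation. Features that come up late, and features that come up early and go down again, are therefore the patterns a second hour of cold can show. The array features carry expressed-sequence IDs without gene names, so no feature below could be placed in this relay, and none is called a CBF or COR gene.

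The 4 arrays had median intensities of 12.05 to 12.08 on the log2 scale. The random-sequence control, a measure of array background, was 5.74 in Shin-Hong and 5.26 in Man-Su at 120 min, against 5.52 in Shin-Hong and 5.23 in Man-Su at 60 min. The Shin-Hong array at 120 min stood apart from the others of its variety. Its correlation across features with the earlier Shin-Hong cold arrays was 0.963 to 0.964, while those 3 correlated at 0.983 to 0.994 with each other, and 585 of its features lay below the random-sequence control, against 180 to 272 in the Man-Su arrays at 120 and 60 min and the Shin-Hong array at 60 min. With the Man-Su cold arrays it correlated at 0.937 to 0.961, and the earlier Shin-Hong cold arrays did so at 0.920 to 0.948. Whether this array holds RNA of Shin-Hong alone was not tested, and every Shin-Hong value at 120 min rests on it. The Man-Su changes, given beside those of Shin-Hong throughout, do not use it. The mean of 5 barcode controls was 8.98 in Shin-Hong and 7.82 in Man-Su at 120 min, against 8.78 in Shin-Hong and 8.05 in Man-Su at 60 min. Among the Man-Su cold arrays, the 30 min array had the highest barcode mean, 8.90. That array stood apart too: it correlated at 0.971 to 0.977 with the other Man-Su cold arrays, which correlated at 0.978 to 0.991 with each other. With the Shin-Hong cold arrays it correlated at 0.945 to 0.961, and the other Man-Su cold arrays did so at 0.920 to 0.951. The upper ends 0.961 and 0.948 given above are correlations with it. Of its features 387 lay below the random-sequence control. The 2 normal arrays resembled the cold arrays of the opposite variety, with correlations of 0.938 to 0.962 (labelled Man-Su, with Shin-Hong cold) and 0.933 to 0.957 (labelled Shin-Hong, with Man-Su cold), so their values are given only as levels under their labels.

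Between 60 and 120 min the Shin-Hong pair of arrays had more features 2-fold apart than the Man-Su pair, and the Shin-Hong count rests on the 120 min array that stood apart. In Shin-Hong, 1103 features were at least 2-fold higher (2.32% of all) and 2025 at least 2-fold lower (4.26%) at 120 than at 60 min. In Man-Su, 452 were higher (0.951%) and 257 lower (0.541%). The 2 varieties parted in the earlier steps too: 0.263% of features were 2-fold apart between 15 and 30 min in Shin-Hong and 6.23% in Man-Su, and 1.16% between 30 and 60 min in Shin-Hong and 4.53% in Man-Su. The widest step had at one end the 120 min array in Shin-Hong and the 30 min array in Man-Su, each with the highest barcode mean of its variety's cold arrays. The Shin-Hong array at 15 min had nearly the same barcode mean (8.93) and was at one end of the narrowest step. The part of control level in the width of a step was not tested.

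**Figure D1:**
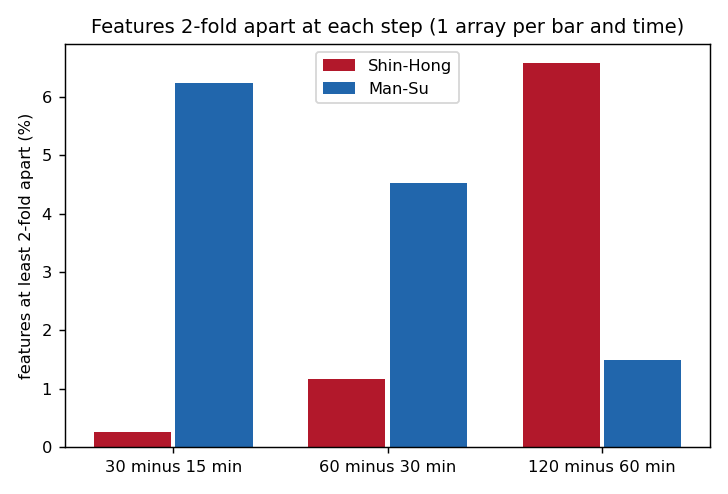
Bars give the percent of the 47548 features at least 2-fold apart, in either direction, between consecutive cold times, with 1 array per variety and time and so no error bar. The last step, 120 minus 60 min, is the widest for Shin-Hong (6.58%) and the narrowest for Man-Su (1.49%).

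Over all features the second-hour changes of the varieties had little in common. The correlation of the 2 changes was 0.062 across features, and 49.1% of features moved in the same direction. Direction was shared more often among features with large differences. Of the features at least 1.5-fold apart in both varieties, 819 had the same direction and 405 opposite directions. At 2-fold the counts were 176 with the same and 24 with opposite directions, and at 4-fold 11 and 0. The shared features were 84 higher (0.177% of all) and 92 lower (0.193%). At the edge of the rule, the smaller of the 2 changes was 1.004 log2 units for the last feature inside and 0.997 for the first outside among higher features, and 1.0005 and 0.995 in size among lower ones.

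The limma test, with the varieties as the samples of a time and variety as a term, called no feature for 120 against 60 min at an adjusted p under 0.05 (0% of 47548). An unadjusted limma p under 0.05 was found for 3268 features, 1641 higher and 1627 lower, and the smallest limma adjusted p was 0.144. The 176 shared features had limma adjusted p values of 0.144 to 0.738 and standard errors of 0.15 to 0.91 log2 units (median 0.26). Everything below on the second hour is therefore a description of these 4 arrays. Of 21 alternative fits, 6 made calls. From the 4 arrays alone limma called 42 features, all among the shared ones. With an intensity trend in the variance it called 84, of which 65 were shared ones. In each of 4 others it called the same 1 feature. The 176 shared features, of 47548, were chosen on the same values that limma tests, so these overlaps follow largely from the choice and are no support for it.

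**Figure D2:**
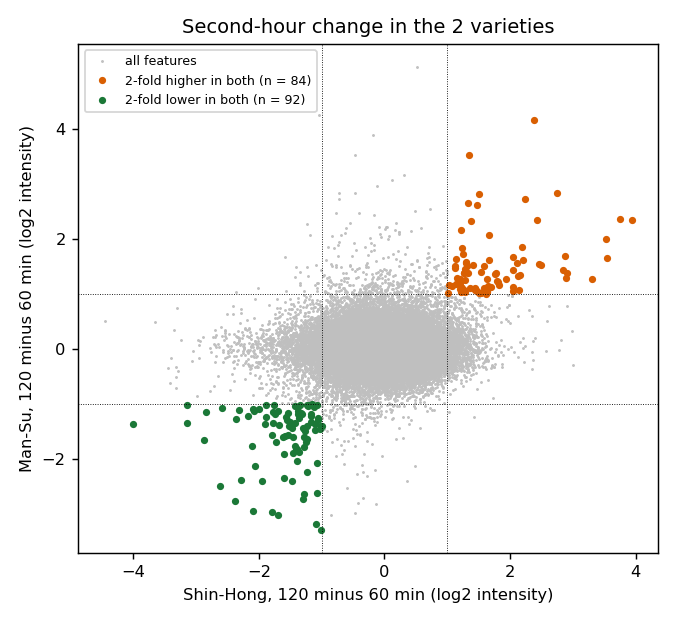
Each point is a feature, placed by its change from 60 to 120 min (120 minus 60, log2 intensity) in Shin-Hong on the x axis and in Man-Su on the y axis, with dotted lines at 2-fold. The cloud has no slope (correlation 0.062), while the corners of shared direction hold 84 (orange) and 92 (green) features and the corners of opposite direction 2 and 22.

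The 84 features higher at 120 min came mainly from levels below the middle of the array and reached it. Their median level was 12.09 in Shin-Hong and 12.09 in Man-Su at 120 min, against 10.00 in Shin-Hong and 10.66 in Man-Su at 60 min, where the median of all features was 12.05 to 12.08. The median change was 2.95-fold in Shin-Hong and 2.59-fold in Man-Su, with largest values of 15.4-fold and 17.9-fold. In 81 of the 84 both 120 min arrays lay above both 60 min arrays, and 120 min was the highest of the 4 cold times in 83 features in Shin-Hong and 83 in Man-Su. The rule that chose these features sets 120 above 60 min within each variety, so these counts follow largely from the rule. No share over all features is given beside them. The varieties lay closer together at 120 min, with a median gap in level of 0.361 log2 units against 0.597 at 60 min. Over all features the gap was 0.290 at 120 min against 0.418 at 60 min. All 84 were read by 7 probes, and 83 lay above the highest random-sequence control in all 4 arrays.

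The feature that led the higher group was Brapa_ESTC004179. Its log2 intensity was 11.38 in Shin-Hong and 10.93 in Man-Su at 120 min, against 8.63 in Shin-Hong and 8.10 in Man-Su at 60 min. Both 120 min arrays lay far above both 60 min arrays, and the gap between the varieties at either time was small beside that between the times. The fitted difference was 2.79 ± 0.19 log2 units (SE), a 6.93-fold difference, with a limma adjusted p of 0.144. At 15 and 30 min the feature was at 7.85 and 7.97 in Shin-Hong and at 7.61 and 7.14 in Man-Su, and in the arrays labelled normal at 7.25 (Shin-Hong) and 7.61 (Man-Su). The 60 min values were thus a little above the earlier ones, and the 120 min values far above all of them. It was called by limma in 6 of 21 alternative fits, including both quantile normalizations and the fit with a control-level term.

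Brapa_ESTC002985 was next by the smaller of its 2 changes, and started near background. It stood at 8.88 in Shin-Hong and 9.92 in Man-Su at 120 min, against 6.49 in Shin-Hong and 5.75 in Man-Su at 60 min. The Man-Su value at 60 min lay just above the highest random-sequence control, 5.74, so the size of the Man-Su difference, 17.9-fold, rests on a value at background. On average over the varieties it was higher by 3.27 ± 0.49 log2 units (SE), with a limma adjusted p of 0.292. At 15 and 30 min it was at 6.09 and 6.17 in Shin-Hong and at 5.29 and 5.08 in Man-Su.

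The other 4 features that were over 4-fold higher in both varieties are given without their IDs. In 3 of them the earlier difference, from 15 to 60 min, was not 1.5-fold in both varieties. The largest Shin-Hong difference was 15.4-fold, in a feature at 13.13 in Shin-Hong and 13.08 in Man-Su at 120 min, against 9.18 in Shin-Hong and 10.74 in Man-Su at 60 min. In Man-Su this feature had been at 9.58 at 15 min and 9.87 at 30 min, so there it was already over 1.5-fold higher at 60 than at 15 min. Another was at 12.80 in Shin-Hong and 12.35 in Man-Su at 120 min, against 9.04 in Shin-Hong and 9.99 in Man-Su at 60 min. The last of the 3 was at 10.67 in Shin-Hong and 10.79 in Man-Su at 120 min, against 8.43 in Shin-Hong and 8.07 in Man-Su at 60 min. The fourth was higher at each successive time, with 7.24, 8.04, 9.90 and 12.33 at 15, 30, 60 and 120 min in Shin-Hong and 8.68, 9.79, 10.48 and 12.83 in Man-Su.

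**Figure D3:**
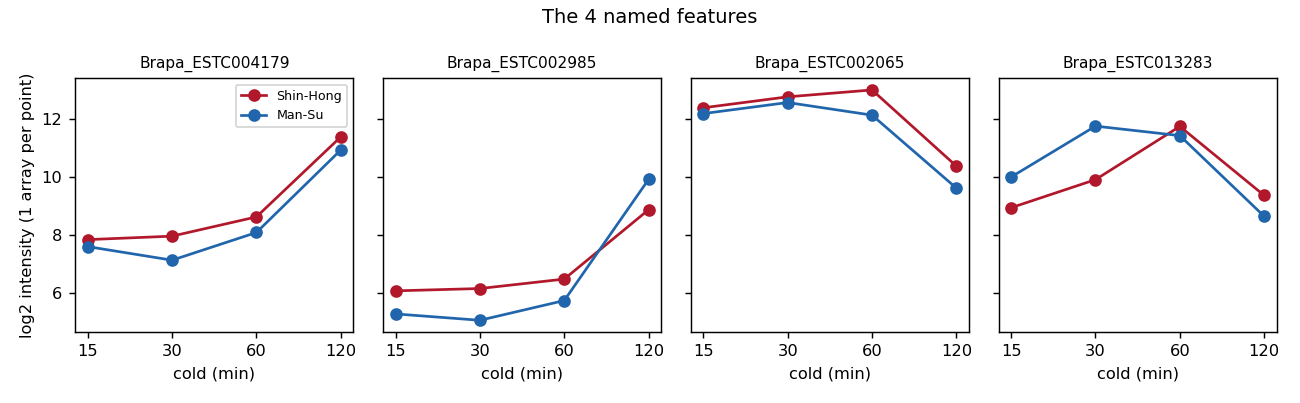
Lines give the log2 intensity of the 4 named features against minutes of cold, with 1 array per point, red for Shin-Hong and blue for Man-Su. The 2 on the left are highest at 120 min, far above their values at 15 to 60 min, and the 2 on the right are lowest or near their 15 min level at 120 min after higher values at 30 and 60 min.

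The 92 features lower at 120 min sat near the middle of the array at 60 min. Their median level was 10.99 in Shin-Hong and 10.35 in Man-Su at 120 min, against 12.64 in Shin-Hong and 12.08 in Man-Su at 60 min. The median difference was 2.74-fold in Shin-Hong and 2.64-fold in Man-Su, with largest values of 16.0-fold and 9.83-fold. In 82 of the 92 both 120 min arrays lay below both 60 min arrays, and 120 min was the lowest of the 4 cold times in 78 features in Shin-Hong and 82 in Man-Su. Here the rule sets 120 below 60 min within each variety, so these counts too follow largely from it, again with no share over all features beside them. The highest time was 60 min for 53 of them in Shin-Hong and 30 min for 51 in Man-Su. Since the Man-Su array at 30 min stood apart, a difference in timing between the varieties cannot be read from these counts. In contrast to the higher group, the gap between the varieties was wider at 120 min, 0.821 log2 units against 0.590 at 60 min. Of the 92, 9 had a value below the random-sequence control of its array, so their differences have at most a bound in at least 1 variety. With such values set to the control, 87 lower and 83 higher features remained 2-fold apart in both varieties. In 4 of the 9 both 120 min arrays lay below the control. For 3 of these the 60 min level averaged over the varieties lay below the averaged 120 min controls, so no averaged fold can be given. A feature among the 3 was still at 5.75 in Man-Su at 60 min, above the Man-Su controls of 5.23 at 60 min and 5.26 at 120 min. For the feature outside the 3, the 60 min level averaged over the varieties lay 1.17-fold above the averaged 120 min controls. Its Shin-Hong value at 60 min, 5.39, was itself below the control of that array, 5.52, so no bound holds in Shin-Hong. Its Man-Su value at 60 min, 6.06, lay above the Man-Su controls.

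Brapa_ESTC002065 led the lower group. It stood at 10.38 in Shin-Hong and 9.62 in Man-Su at 120 min, against 13.00 in Shin-Hong and 12.13 in Man-Su at 60 min. Both 120 min arrays lay well below both 60 min arrays. The fitted value was -2.56 ± 0.23 log2 units (SE), or 5.91-fold lower, with a limma adjusted p of 0.206. At 15 and 30 min it was at 12.38 and 12.76 in Shin-Hong and at 12.18 and 12.56 in Man-Su, so it was bright at all 3 earlier times, and over 1.5-fold higher at 60 than at 15 min in Shin-Hong. In the normal arrays it was at 9.86 under the label Shin-Hong and at 12.40 under the label Man-Su.

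Brapa_ESTC013283 had another shape, a peak within the first hour. It was at 9.37 in Shin-Hong and 8.65 in Man-Su at 120 min, against 11.74 in Shin-Hong and 11.43 in Man-Su at 60 min. At 15 and 30 min it had been at 8.95 and 9.91 in Shin-Hong and at 10.00 and 11.75 in Man-Su. The highest of the 4 times was thus 60 min in Shin-Hong and 30 min in Man-Su. The Man-Su value at 30 min, 11.75 against 11.43 at 60 min, comes from the array that stood apart. A difference in timing between the varieties can therefore not be read from it. At 120 min the level was above the 15 min value in Shin-Hong and below it in Man-Su. The fitted value was -2.57 ± 0.59 log2 units (SE), or 5.95-fold lower, with a limma adjusted p of 0.513. Of the other 3 features over 4-fold lower in both varieties, 1 was at 10.84 in Shin-Hong and 9.06 in Man-Su at 120 min, against 12.93 in Shin-Hong and 12.01 in Man-Su at 60 min, and 2 were among the features with an early peak described next.

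**Figure D4:**
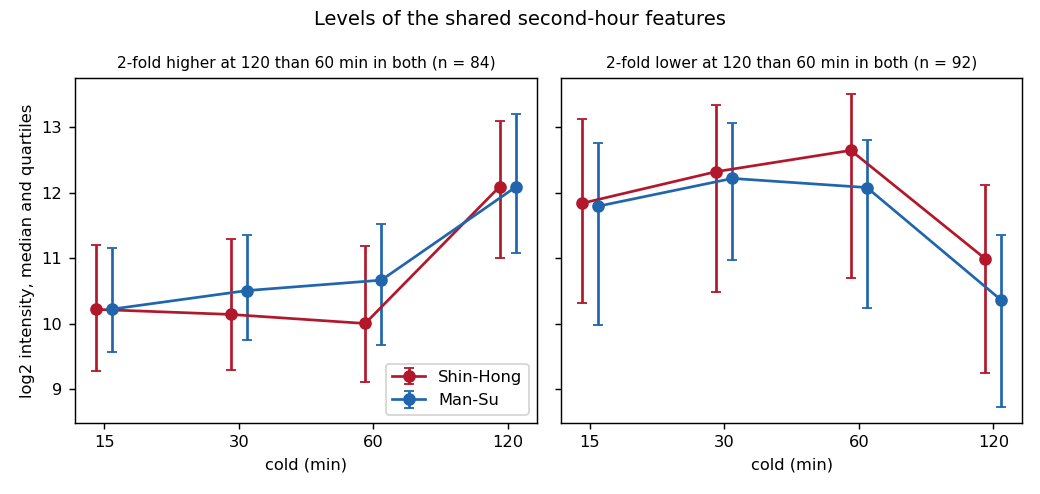
Points give the median over the 84 higher (left) and 92 lower (right) features, bars the quartiles over features, against minutes of cold, red for Shin-Hong and blue for Man-Su. The median of the higher group is nearly level to 60 min in Shin-Hong and goes from 10.22 at 15 min to 10.66 at 60 min in Man-Su. It reaches 12.09 in both varieties at 120 min. The lower group stands at 10.99 (Shin-Hong) and 10.35 (Man-Su) at 120 min. Its highest median is at 60 min in Shin-Hong and at 30 min in Man-Su, on the Man-Su array that stood apart.

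Whether the second hour continued or reversed the change from 15 to 60 min was read with a threshold of 1.5-fold in both varieties for the earlier change. The 60 min arrays enter both differences, with opposite sign, so a high or low 60 min value moves both. Over all features, 402 were higher (0.845%) and 116 lower (0.244%) at 60 than at 15 min in both varieties. Of the 92 lower features, 19 had been higher (20.7% of the 92, 4.73% of the 402), which is a reversal, and 0 had been lower. Of the 84 higher features, 5 had been higher, which continues the change, 1 had been lower, and 78 had done neither. For 44 of the 84 the earlier difference was within 1.5-fold in both varieties, so the others had moved by that much in at least 1. Over all features, 4.56% were at least 1.5-fold higher and 3.73% lower at 60 than at 15 min in Shin-Hong. In Man-Su these shares were 1.73% and 1.09%. An earlier move in at least 1 variety was thus more frequent among the 84 than among all features.

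The step from 15 to 30 min shares no array with the second hour. In both varieties 146 features were higher (0.307%) and 24 lower (0.0505%) at 30 than at 15 min. Of the 92 lower features, 18 had been higher (19.6% of the 92, 12.3% of the 146) and 0 lower. Of the 84 higher features, 1 had been higher and 0 lower. Since the Man-Su array at 30 min had high controls, the step was also read in Shin-Hong alone: 20 of the 92 (21.7%) were at least 1.5-fold higher at 30 than at 15 min, where 1.31% of all features were, and 3 of the 84 (3.57%) were. In Man-Su alone 29 of the 92 (31.5%) and 15 of the 84 (17.9%) were, where 4.69% of all features were.

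The 19 features that reversed had median levels of 10.72, 11.87, 12.74 and 11.19 at 15, 30, 60 and 120 min in Shin-Hong and of 10.86, 11.83, 12.06 and 10.20 in Man-Su. By the choice of the 19, neither 15 nor 120 min could be their highest time, and only 30 or 60 min was open. The highest was 60 min for all 19 in Shin-Hong, and in Man-Su 60 min for 10 and 30 min for 9, where the 30 min array stood apart. Of the 19, 14 were also at least 1.5-fold higher at 30 than at 15 min in both varieties. At 120 min 8 lay below their 15 min level in both varieties, 6 in 1 variety and 5 in neither. The highest 120 min levels belonged to a feature at 13.31 in Shin-Hong and 12.60 in Man-Su, against 14.48 in Shin-Hong and 13.84 in Man-Su at 60 min, which stood at 13.28 in Shin-Hong and 12.72 in Man-Su at 15 min and so was back near that level in both varieties. The feature with the largest fitted 15 to 60 min difference of the 19 was at 11.51 in Shin-Hong and 10.24 in Man-Su at 120 min, against 12.93 in Shin-Hong and 12.06 in Man-Su at 60 min, and was at 10.32 in Shin-Hong and 9.89 in Man-Su at 15 min. These 2 features were picked after their values were seen.

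**Figure D5:**
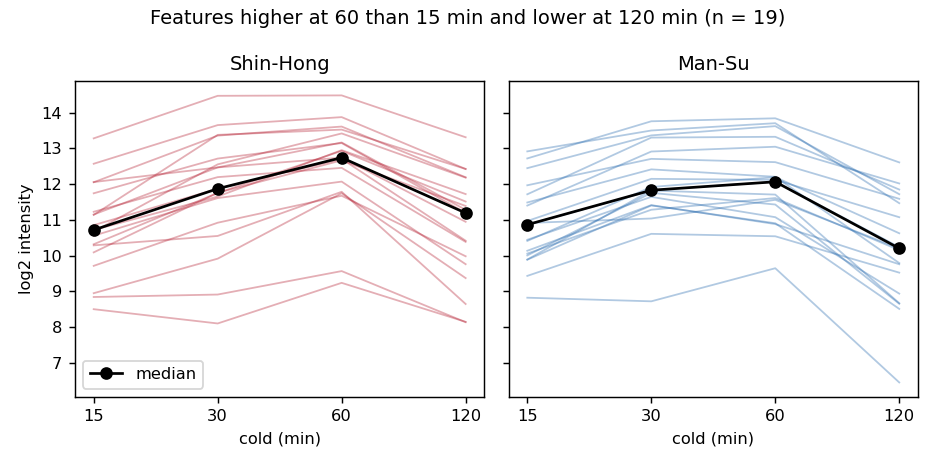
Thin lines give the log2 intensity of the 19 features higher at 60 than at 15 min and lower at 120 than at 60 min in both varieties, against minutes of cold, and the black line their median. By their choice the 19 can be highest only at 30 or 60 min. All 19 are highest at 60 min in Shin-Hong, and in Man-Su 10 are highest at 60 min and 9 at 30 min, on the 30 min array that stood apart.

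The 5 features that continued had median levels of 9.28, 9.61, 10.48 and 12.33 at 15, 30, 60 and 120 min in Shin-Hong and of 10.16, 10.43, 10.81 and 12.83 in Man-Su. The 1 higher feature with a reversal was at 10.38 in Shin-Hong and 10.42 in Man-Su at 120 min, against 9.10 in Shin-Hong and 8.97 in Man-Su at 60 min, after 9.87 in Shin-Hong and 10.31 in Man-Su at 15 min. Over the 402 features higher at 60 than at 15 min, the median second-hour change was -0.17 log2 units in Shin-Hong and -0.03 in Man-Su, with 54 features at least 1.5-fold higher and 115 lower in Shin-Hong and 67 higher and 69 lower in Man-Su. For the 116 features lower at 60 than at 15 min the medians were -0.18 in Shin-Hong and 0.04 in Man-Su.

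Limma called 5 features for 60 against 15 min, and all 5 rose (0.0105% of all). Their fitted rises were 3.88, 3.62, 3.15, 2.82 and 2.81 log2 units (limma adjusted p = 0.0232 to 0.0423), and each was brighter at 30 than at 15 min in both varieties. None of the 5 was among the 176 shared features: their second-hour differences were 0.31, 0.32, -0.38, 0.35 and -0.14 log2 units, with limma adjusted p values of 0.738 to 0.874. The strongest was at 14.28 in Shin-Hong and 14.19 in Man-Su at 120 min, against 13.57 in Shin-Hong and 14.27 in Man-Su at 60 min, where it had been at 10.01 in Shin-Hong and 10.07 in Man-Su at 15 min. At 120 min the 5 were thus still far above their 15 min values. They were not called when either array at 15, 60 or 120 min was left out.

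How far a large change in 1 variety was met in the other was read without a shared array. Of the 257 features at least 2-fold lower in Man-Su, 223 were lower in Shin-Hong (86.8%, where 51.2% of all features were), with a median change of -0.68 log2 units, and 92 were 2-fold lower (35.8%, against 4.26% of all). Of the 452 higher in Man-Su, 257 were higher in Shin-Hong (56.9%, where 48.8% of all were). Of the 1103 higher in Shin-Hong, 652 were higher in Man-Su (59.1%, where 49.6% of all were), and of the 2025 lower in Shin-Hong, 1005 were lower in Man-Su (49.6%, where 50.4% of all were). At 2-fold, 84 of the 452 (18.6%, against 2.32% of all), 84 of the 1103 (7.62%, against 0.951%) and 92 of the 2025 (4.54%, against 0.541%) were met in the other variety. The features lower in Shin-Hong were thus lower in Man-Su, at any size, about as often as any feature, but 2-fold lower more often.

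The large differences between the Shin-Hong arrays at 120 and 60 min, which rest on the same 120 min array, mostly ran in the direction of the mean level that Man-Su had at 15 and 30 min. This was so for 929 of the 1103 higher (84.2%), where Man-Su had the higher early level in 53.1% of all features, and for 1651 of the 2025 lower (81.5%), where it had the lower early level in 46.9%. In Man-Su it was so, toward the early Shin-Hong level, for 331 of the 452 higher (73.2%, where Shin-Hong had the higher early level in 46.9% of all features) and for 127 of the 257 lower (49.4%, where it had the lower early level in 53.1%). Among the shared features, the Shin-Hong change ran toward the Man-Su level at those times in 45 of the 84 higher features, about the share of all features (53.1%). It did so in 58 of the 92 lower features, where Man-Su had the lower early level in 46.9% of all. Since both varieties moved the same way, the Man-Su change ran toward the early Shin-Hong level in the remaining 39 of the 84 and 34 of the 92. Only direction was read here, not where the 60 min level lay, and the early Man-Su level includes the 30 min array that stood apart.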

How the data were processed

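The authors deposited 1 linear intensity value per feature and array, made by RMA (robust multi-array average) per the submitters' processing notes. Which software ran RMA is not given in the sources used here. Probe numbers, another deposited value, were 7 for 98.4% of features and otherwise 3 or more. The 6 control features were used only for array background. Intensity was taken to log2 here, without a filter. Depth has no meaning for these arrays: their number limits the precision.

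Models of the 8 cold arrays were made in R 4.3.3 using limma 3.58.1, with terms for variety and time (3 residual degrees of freedom), Benjamini-Hochberg adjusted over 47548 features. Variety is the pairing of the arrays, given by the labels, and is in the fit as a block. A fold within a variety compares 1 array with 1 array.

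The shared-feature rule and the features described were chosen with earlier results of these data known. By rule, IDs are printed for the 2 features on each side with the largest smaller change among those with all 4 values above the highest random-sequence control. No ID matched a gene in the RefSeq table used here (assembly CAAS_Brap_v3.01), so planned lists of cold, clock, heat shock and photosynthesis genes could not be read. Alternatives were other normalizations, sample sets, filters, thresholds and leaving out each array.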

Additional observations from a re-analysis of the deposited data

Results flagged for a closer look

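The barcode controls moved in opposite directions in the second hour: their mean changed by 0.207 log2 units in Shin-Hong and by -0.223 in Man-Su (120 minus 60 min, 1 array each). That difference was not tested, since there is 1 array per variety and time.

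Of the features at least 2-fold apart in both varieties, 22 were lower in Shin-Hong and higher in Man-Su at 120 min, and 2 the other way round. Each variety gives 1 difference here, so the contrast was not tested. The 22 had median levels of 9.92 in Shin-Hong and 9.86 in Man-Su at 120 min, against 11.54 in Shin-Hong and 8.51 in Man-Su at 60 min. At 15 and 30 min Shin-Hong lay above Man-Su in 19 of the 22, and at 120 min in 9. The 2 had median levels of 10.79 in Shin-Hong and 10.51 in Man-Su at 120 min, against 9.56 in Shin-Hong and 11.70 in Man-Su at 60 min.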

How the results depend on the processing

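For 120 against 60 min limma called 0 features in 15 of 21 alternatives, including all 8 that left out an array and the fit without variety as the pairing (no replicate block), where the count was 0. It called 1 (Brapa_ESTC004179) with quantile normalization over 8 or over 10 arrays, with the normal labels exchanged and with a control-level term, 42 from the 4 arrays alone (1 residual degree of freedom) and 84 with an intensity trend. For 60 against 15 min it called 588 from 4 arrays and 0 to 6 without 1 array. The 4 named features kept their direction in all 21 alternatives each. They were chosen for large changes in these same arrays, and many alternatives leave the fitted difference unchanged. Their kept direction is therefore no independent support. Asking 1.5-fold gave 383 higher and 436 lower shared features, and 4-fold 6 and 5. Without 1 array, 1 variety alone remains: 452 to 1103 higher and 257 to 2025 lower, so the shared counts need both varieties. The counts of continued and reversed features depended on the earlier step. Higher features that continued numbered 3 (30 to 60 min), 1 (15 to 30 min), 2 (2-fold), 35 (any size), 8 (quantile normalized), 3 (15 to 30 min in Shin-Hong alone, chosen after seeing the data) and 14 to 19 without 1 array. Higher features that reversed numbered 0, 0, 0, 19, 2, 2 and 2 to 15 in the same order. Lower features that continued numbered 4 (30 to 60 min), 26 (any size), 2 (Shin-Hong alone) and 10 to 10 without 1 array. Lower features that reversed numbered 2 (30 to 60 min), 11 (2-fold), 41 (any size) and 24 to 33 without 1 array. The causes of these moves were not tested. Signal below the random-sequence control of an array limits 9 of the lower features.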
